A study of Mus musculus with 16 samples.

Results

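The myotubularins are a family of phosphoinositide phosphatases and inactive relatives of those enzymes, and 10 of their genes (Mtm1, Mtmr1, Mtmr2, Mtmr3, Mtmr4, Mtmr6, Mtmr7, Mtmr9, Mtmr12 and Mtmr14) were followed here through a mouse muscle RNA sequencing series. Their rows were found by gene symbol, as those of the deposited table whose Ensembl identifier carries that symbol in the GENCODE annotation of GRCm38, and all 10 were found among 29730 genes. RNA came from the tibialis anterior, a shin muscle, of 16 C57BL/6N males 7 weeks old. With 4 mice a group, the wild-type (WT) animals received either PBS, a saline buffer (WT_PBS), or ASO1, an antisense oligonucleotide (WT_ASO), and the Bin1mck-/- animals likewise received PBS (KO_PBS) or ASO1 (KO_ASO). The series title presents Bin1mck-/- as a model of recessive centronuclear myopathy and Dnm2 as the transcript that ASO1 is meant to lower. The sources used here give neither the cells that lost Bin1, nor the deleted part of the gene, nor how much ASO1 was injected and when.

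Libraries held 27591900 to 40862854 counts. Levels are given as CPM, a gene's count relative to the size of its library after TMM scaling, and a gene was called where the edgeR quasi-likelihood test gave a Benjamini-Hochberg adjusted P under 0.05 over the 14960 genes that passed the filter on low counts. All 10 members passed it. Bin1 fell from 463 to 554 CPM in WT_PBS to 40.8 to 47.7 CPM in KO_PBS, and Dnm2 was lower with ASO1 by 1.13 on the log2 scale in wild-type and by 1.34 in knockout muscle, so the labels matched the targeted genes. The muscle fibre markers summed to 149713 CPM or more in every library. In bulk muscle, fewer cells of a type and less RNA per cell cannot be told apart.

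Active myotubularins remove the phosphate at position 3 of the inositol ring from PtdIns3P and PtdIns(3,5)P2, lipids that mark endosomes and autophagic membranes and recruit proteins there. Loss of MTM1 causes X-linked myotubular myopathy, a severe form of centronuclear myopathy, the disease group to which BIN1 and DNM2 also belong. Inactive members lack the catalytic cysteine and bind active ones: Mtmr9 partners Mtmr6 and Mtmr7, Mtmr12 partners Mtm1, and the larger inactive members Sbf1 and Sbf2 partner Mtmr2.

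The catalytic loop separates the active from the inactive members, so its coding sequence is shown for all 10. Each sequence was read from GRCm38 along the coding strand of 1 annotated transcript and spans 7 codons, and the capitals mark the codon of the catalytic cysteine and that of the arginine at the far end of the loop.
Mtm1: TGCagtgacggatgggacAGG
Mtmr1: TGCagtgatgggtgggatCGA
Mtmr2: TGCagtgatggatgggatCGC
Mtmr3: TGCtccgatggctgggatCGG
Mtmr4: TGCtctgacggctgggacCGT
Mtmr6: TGTtccgatgggtgggacAGG
Mtmr7: TGTtctgacggctgggacAGA
Mtmr14: TGTatctcaggctgggacCGG
Mtmr9: gggacagaaggaactgattcc
Mtmr12: gaagagaatgcttctgatctc

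In 8 of the 10 members both codons were present. Mtmr9 and Mtmr12 had neither, and their windows were located by aligning the encoded protein with that of Mtm1. The Mtm1 loop lay at chrX:71299637-71299657 on the + strand, in exon 11 of 15, and the Mtmr3 loop at chr11:4492779-4492799 on the - strand, in exon 12 of 18. The loop was in exon 11 of Mtmr1 (chrX:71401797-71401817, +), Mtmr2 (chr9:13799945-13799965, +) and Mtmr14 (chr6:113265993-113266013, +). It was in exon 12 of Mtmr4 (chr11:87604102-87604122, +) and in exon 9 of both Mtmr6 (chr14:60293420-60293440, +) and Mtmr7 (chr8:40562639-40562659, -). The aligned window of Mtmr9 was in exon 7 (chr14:63529821-63529841, -). That of Mtmr12 ran over the junction of exons 12 and 13 (chr15:12261911-12263744, +), so these coordinates include the intron between them.

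Mtm1 and Mtmr1 are neighbours on the X chromosome, on the same strand, with 49068 bp between the end of Mtm1 (71210767 to 71315691) and the start of Mtmr1 (71364760 to 71419196). Mtmr3 (4480868 to 4594863) and Mtmr4 (87592162 to 87616302) share chromosome 11 but lie far apart. No member shared exon sequence with a counted gene on the other strand except Mtmr7, whose exons overlapped those of Vps37a by 40 bp. Vps37a had a mean of 2127 counts and Mtmr7 a mean of 28.8, and the strand setting of the counting is unknown, so the low level of Mtmr7 could include reads of Vps37a.

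Levels between genes were compared as CPM per kilobase of all annotated exons. In WT_PBS muscle, Mtmr6 was the most abundant member at 18.6 ± 0.603 CPM per kilobase (SD, n = 4), followed by Mtmr3 at 13.4 ± 0.266. Mtmr1, the closest relative of Mtm1 beside Mtmr2, stood at 7.60 ± 1.07 and Mtmr14, a phosphatase linked to autophagy and muscle calcium handling, at 7.26 ± 0.777. The mice of these 2 genes overlapped, so their order was not resolved. Mtmr2, the gene mutated in a demyelinating form of Charcot-Marie-Tooth disease, had 4.15 ± 0.286 CPM per kilobase. Mtmr9 had 3.30 ± 0.272 and Mtmr4 2.95 ± 0.282, with overlapping ranges by this length. Mtm1 itself had 1.22 ± 0.0958, its inactive partner Mtmr12 had 0.810 ± 0.0463 and Mtmr7 0.176 ± 0.0401. The other neighbours in this order did not overlap, and Mtmr3 was 75.8 times as abundant per kilobase as Mtmr7.

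The place of Mtm1 depended on the length used. The exons annotated for Mtm1 add up to 13.935 kb, whereas its principal transcript is 3.316 kb long. Per kilobase of the principal transcript, Mtm1 reached 5.11 CPM in WT_PBS, beside Mtmr2 at 5.38 and Mtmr9 at 4.80. Its mice (4.63 to 5.57) overlapped those of both Mtmr2 (5.005 to 5.76) and Mtmr9 (4.48 to 5.37), so the order of these 3 was not resolved, and in KO_PBS the mean of Mtm1 was above that of Mtmr2 (4.72 and 4.67). Mtmr6 (21.7) and Mtmr3 (18.3) led, and Mtmr12 (0.833) and Mtmr7 (0.315) closed the order, with either length. The WT_PBS mice of Mtmr9 (4.48 to 5.37) and Mtmr4 (2.92 to 3.60) did not overlap per kilobase of the principal transcript. This second length was chosen after seeing the data.

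**Figure D1:**
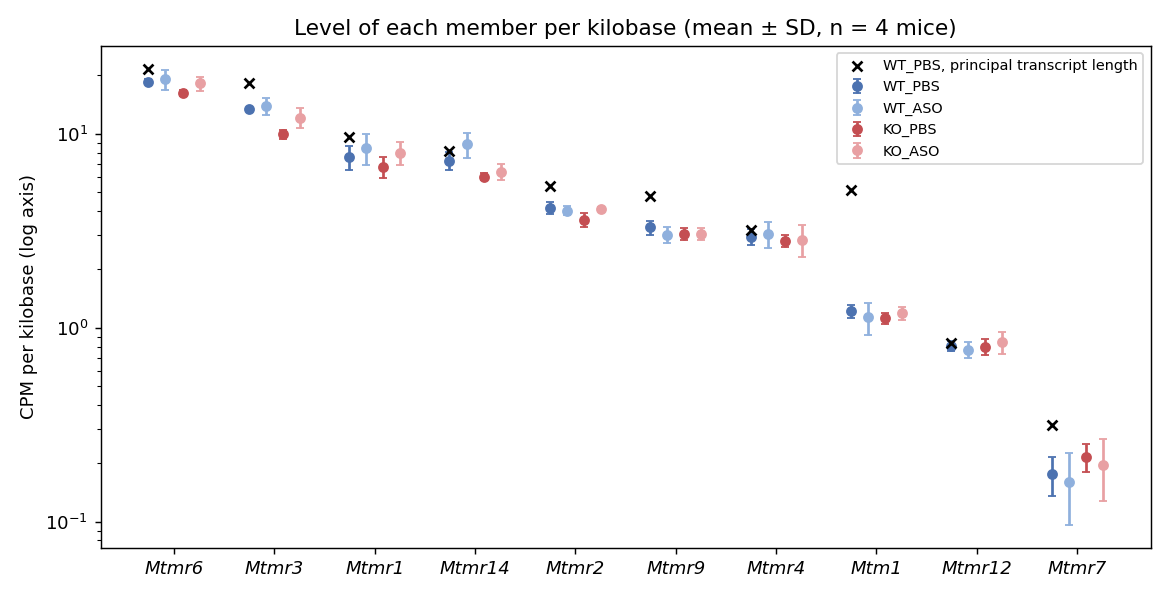
CPM per kilobase of annotated exons (log axis) for the 10 members, as the mean and SD of 4 mice in each group, with crosses for the WT_PBS mean per kilobase of the principal transcript. Mtmr6 and Mtmr3 stand highest and Mtmr7 lowest in WT_PBS with both lengths, and the cross lies farthest above the point for Mtm1 (5.11 against 1.22).

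The first comparison, KO_PBS against WT_PBS, asks what the loss of Bin1 did to the family. Mtmr3 was lower in the knockout and was the only member called, so 1 of 10 members was called, against 12.6% of all genes tested in either direction (5.12% lower and 7.43% higher). Mtmr3 encodes a phosphatase with a FYVE domain, a zinc finger known for binding PtdIns3P, and acts on the lipid pool that starts autophagosomes. Its level in the 4 WT_PBS mice was 102.13, 102.87, 98.38 and 102.02 CPM, and in the 4 KO_PBS mice 70.74, 73.30, 78.85 and 79.12 CPM. Every knockout mouse was below every wild-type mouse, with a gap between 79.1 and 98.4 CPM.

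The log2 fold change of Mtmr3 was -0.42 (SE 0.09, 95% interval -0.61 to -0.23, edgeR adjusted P = 0.00566), a level of 0.745 times that of wild-type. An exact permutation test on this gene alone gave a two-sided P = 0.0286, the smallest that 4 against 4 mice allow. The call held with every other scaling, tool and filter tried and without any one mouse. It was closest to the threshold when libraries were scaled by their totals alone (log2 fold change -0.27, edgeR adjusted P = 0.0345).

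**Figure D2:**
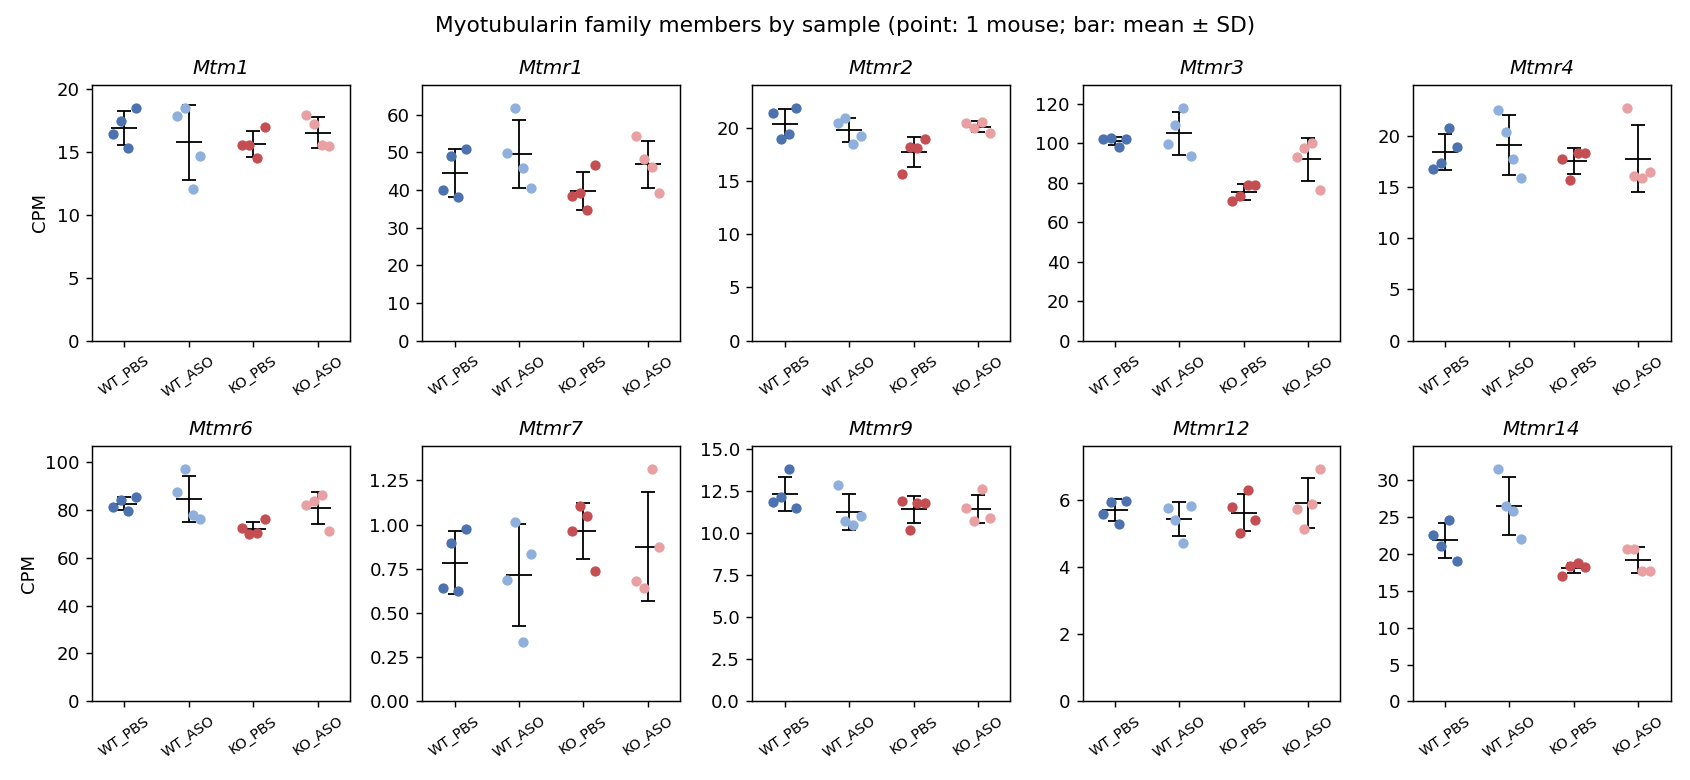
CPM of each of the 10 members in the 16 mice, 1 point per mouse, with the group mean and SD as bars and each vertical axis starting at 0. For Mtmr3 the 4 KO_PBS mice sit at 70.7 to 79.1 CPM, below the 98.4 to 102.9 CPM of the WT_PBS mice, and the KO_ASO mice spread from 76.3 to 100.4 CPM.

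In 3 further members, all catalytically active, the mice of KO_PBS and WT_PBS did not overlap either, although none of the 3 was called. With Mtmr3 this made 4 of 10 members without overlap after TMM scaling, all with lower values in the knockout. Of all genes tested, 20.4% did not overlap, in either direction. Relative to library totals alone, the mice of these 3 further members overlapped between the groups, while those of Mtmr3 did not. Mtmr14 had 22.58, 21.04, 24.62 and 19.11 CPM in WT_PBS and 17.07, 18.39, 18.75 and 18.20 CPM in KO_PBS. The lowest wild-type mouse of Mtmr14 and the highest knockout mouse lay close to each other, and the difference was -0.27 (SE 0.10, edgeR adjusted P = 0.101).

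Mtmr2 had 21.32, 18.96, 19.40 and 21.81 CPM in WT_PBS and 15.60, 18.22, 18.04 and 18.89 CPM in KO_PBS, again with adjacent extremes. Its log2 difference was -0.20 (SE 0.08, edgeR adjusted P = 0.0887). Mtmr6, an endosomal phosphatase, had 81.13, 84.18, 79.63 and 85.42 CPM in WT_PBS and 72.51, 69.84, 70.22 and 76.11 CPM in KO_PBS. Its difference was -0.19 (SE 0.08, edgeR adjusted P = 0.135).
Mtmr2 (adjusted P = 0.0437) and Mtmr6 (adjusted P = 0.0347) passed the threshold with limma-voom, as did Mtmr3, which made 3 of 10 members against 18% of all genes by that tool, and Mtmr14 did not.

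Mtm1, the founding member and the gene of X-linked myotubular myopathy, was not called. Its level was 16.47, 17.43, 15.36 and 18.48 CPM in WT_PBS and 15.55, 15.58, 14.51 and 16.99 CPM in KO_PBS, so the groups overlapped widely. The difference was -0.11 (95% interval -0.36 to 0.13, edgeR adjusted P = 0.575), and a loss of more than 0.36 on the log2 scale lay outside that interval. Mtmr12, which binds and stabilises the MTM1 protein, had 5.29 to 5.97 CPM in WT_PBS and 5.01 to 6.31 CPM in KO_PBS, with a difference of -0.02 (95% interval -0.26 to 0.23).

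Mtmr1 overlapped too, with 38.23 to 50.80 CPM in WT_PBS and 34.67 to 46.62 CPM in KO_PBS and a difference of -0.17 (95% interval -0.46 to 0.12). Mtmr4, the FYVE-domain relative of Mtmr3, stood at 16.79, 17.36, 20.72 and 18.88 CPM in WT_PBS and 17.73, 15.70, 18.33 and 18.32 CPM in KO_PBS. Its difference was -0.07 (95% interval -0.34 to 0.19), and a lowering as large as the point estimate of Mtmr3 lay outside this interval. Whether the 2 FYVE-domain members differed from each other in their response was not tested.

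The inactive Mtmr9 had 11.51 to 13.80 CPM in WT_PBS and 10.20 to 11.88 CPM in KO_PBS, a difference of -0.11 (95% interval -0.31 to 0.09). Mtmr7, for which single libraries held as few as 11 counts, had 0.62 to 0.98 CPM in WT_PBS and 0.740 to 1.105 CPM in KO_PBS. Its difference of 0.30 had a 95% interval from -0.36 to 0.95, so the data set no closer limit on a change of Mtmr7 than these bounds.

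Over the family, 9 of 10 differences were below 0 with a median of -0.14, against a median of -0.01 and 51.5% below 0 over all genes tested, but with libraries scaled by their totals alone 5 of 10 were below 0 with a median of 0.01. That scaling moved the median of all genes to 0.14. Under it, the members that stayed below 0 were Mtmr1, Mtmr2, Mtmr3, Mtmr6 and Mtmr14, while Mtm1 (0.04), Mtmr4 (0.08), Mtmr9 (0.04) and Mtmr12 (0.13) moved above 0. In the fit used throughout, 4 members had an unadjusted P under 0.05 (Mtmr2, Mtmr3, Mtmr6 and Mtmr14), against 27.3% of all genes.

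Markers of other cells moved with the same comparison. All 10 macrophage markers were called higher in KO_PBS, with a summed level of 125 to 375 CPM against 47.8 to 77.2 CPM in WT_PBS and 51.4 to 80.8 CPM in KO_ASO. All 4 satellite cell markers were called lower (14.6 to 20.5 CPM in WT_PBS and 5.79 to 7.53 CPM in KO_PBS), as were 3 of 8 muscle fibre markers (187523 to 229775 CPM and 149713 to 169059 CPM), and 2 of 5 fibroblast markers were higher. No gene of the endothelial, Schwann cell, adipocyte or erythroid lists was called, nor the 1 of 3 neutrophil markers that was tested. The 3 T cell markers were too low to test, and they summed to at most 0.383 CPM in any library. The part of these markers in the differences of the family and of the related genes was not tested.

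The second comparison, KO_ASO against KO_PBS, asks what lowering Dnm2 did in the knockout. None of the 10 members was called, against 3.64% of all genes (0.802% higher), and 2 (Mtmr2 and Mtmr3) had an unadjusted P under 0.05, against 17.7%. Mtmr3 had 93.16, 97.63, 100.36 and 76.34 CPM in KO_ASO. In 3 of these mice it was above all 4 KO_PBS mice, and replicate 4 lay inside the KO_PBS range of 70.7 to 79.1 CPM. That mouse also had the highest Dnm2 of the KO_ASO group, 31.08 CPM against 20.71 to 24.38 CPM in the others. Without it, edgeR called 831 genes in this comparison rather than 544. Whether these differences bear on Mtmr3 was not tested.

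The difference of Mtmr3 was 0.28 (SE 0.09, 95% interval 0.09 to 0.47, edgeR adjusted P = 0.0932, exact permutation P = 0.0857). It passed the threshold with DESeq2 (adjusted P = 0.0437, 7.06% of all genes called), with limma-voom (adjusted P = 0.0113, 7.95% called) and, in edgeR, without KO_ASO replicate 4 (log2 fold change 0.36, adjusted P = 0.0194). That library was chosen for this statement after its value had been seen. The limma-voom fit weighted samples by quality and can give less weight to such a library. In edgeR, Mtmr3 was not called with library totals alone (adjusted P = 0.225), no filter (0.204) or the compared groups only (0.145). Nor was it called with the replicate block (0.0715) or without any other mouse (highest adjusted P 0.295, without KO_PBS replicate 1). Against WT_PBS, the KO_ASO level of Mtmr3 differed by -0.14 (95% interval -0.33 to 0.05, edgeR adjusted P = 0.733). The mean was 90.6% of WT_PBS in KO_ASO and 74.5% in KO_PBS. These comparisons share the KO_PBS or the WT_PBS mice and are not independent of the first one.

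**Figure D3:**
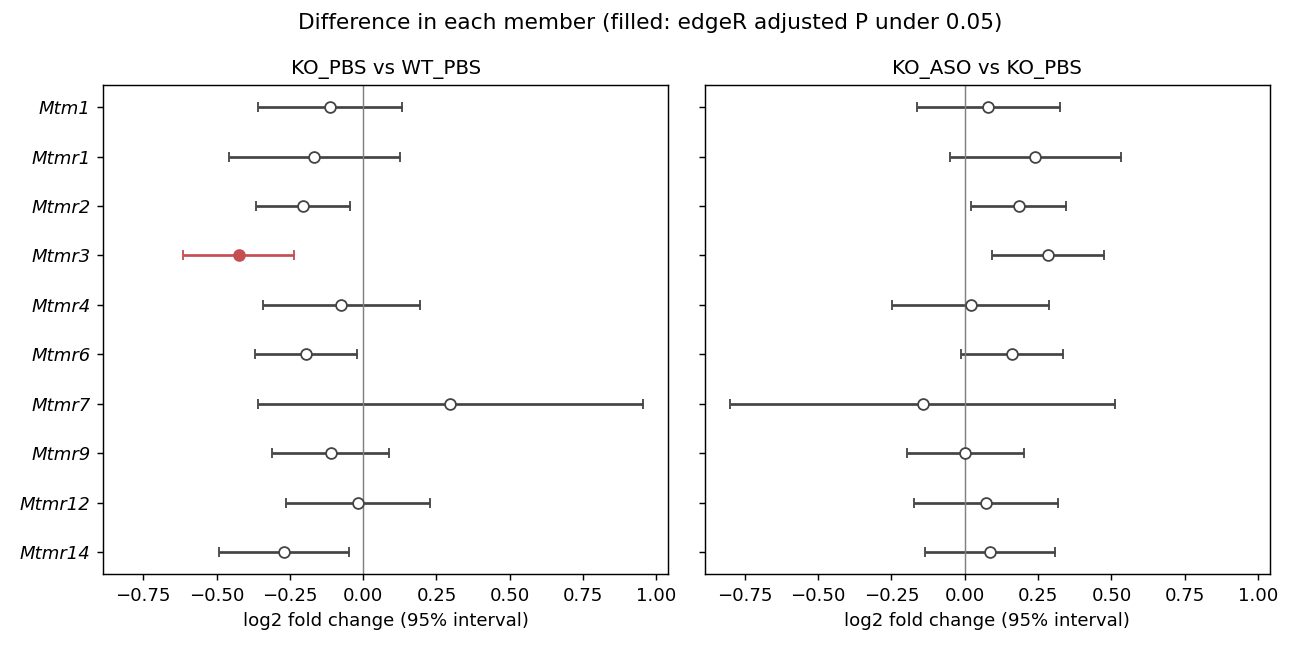
Log2 fold change with its 95% interval for each member in KO_PBS against WT_PBS (left) and KO_ASO against KO_PBS (right), filled where the edgeR adjusted P is under 0.05. The filled point is Mtmr3 at -0.42 on the left, and on the right its open point stands at 0.28. The panels share the KO_PBS mice, so a high or low KO_PBS mouse shifts both.

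After TMM scaling, Mtmr2 was the single member whose KO_ASO and KO_PBS mice did not overlap, against 10.4% of all genes. Relative to library totals alone, the mice of Mtmr2 overlapped here too. It had 20.45, 19.97, 20.49 and 19.44 CPM in KO_ASO, above the 15.60 to 18.89 CPM of KO_PBS, and the difference was 0.18 (SE 0.08, edgeR adjusted P = 0.206). The KO_ASO values of Mtmr2 were also close together, with an SD of 0.490 CPM against 1.44 CPM in KO_PBS. Mtmr6 had 82.06, 83.63 and 85.97 CPM in 3 KO_ASO mice and 71.14 CPM in replicate 4, the mouse in which Mtmr3 was low as well, and a difference of 0.16 (edgeR adjusted P = 0.324).

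Mtmr1 had 54.23, 48.13, 46.03 and 39.13 CPM in KO_ASO, a difference of 0.24 (95% interval -0.05 to 0.53). Mtmr14 had 20.64, 20.71, 17.72 and 17.66 CPM, 2 of 4 mice lying within the KO_PBS range, and its difference was 0.08 (95% interval -0.14 to 0.31). Mtm1 stood at 17.92, 17.23, 15.57 and 15.47 CPM, a difference of 0.08 (95% interval -0.16 to 0.32). For Mtmr4, Mtmr9 and Mtmr12 the differences were 0.02, 0.00 and 0.07, and for Mtmr7 the value was -0.14. That of Mtmr4 rested on KO_ASO replicate 1, at 22.67 CPM against 15.85 to 16.44 CPM in the other 3, and without it the difference was -0.12. With TMM scaling 9 of 10 members were above 0 (median 0.08, all genes 0.01), whereas with library totals alone 4 of 10 were (median -0.01, all genes -0.08).

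In wild-type muscle, WT_ASO against WT_PBS, no member was called by edgeR, DESeq2 or limma-voom, which called 0.00668%, 0.221% and 0.00668% of all genes. None was without overlap, against 3.22% of all genes. Mtmr14 had the largest difference, with 31.55, 26.53, 25.90 and 22.10 CPM in WT_ASO against 19.11 to 24.62 CPM in WT_PBS. The difference was 0.28 (SE 0.10, edgeR unadjusted P = 0.0160, adjusted P = 0.736), and the lowest WT_ASO mouse lay inside the WT_PBS range. It was the only member with an unadjusted P under 0.05, against 6.45% of all genes. Mtmr3 ranged from 93.5 to 117.9 CPM in WT_ASO, around the narrow WT_PBS range, with a difference of 0.05 (95% interval -0.14 to 0.24). Mtm1 differed by -0.10 (95% interval -0.35 to 0.14), its WT_ASO mice spreading from 12.05 to 18.49 CPM.

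Between the ASO1-treated groups, KO_ASO against WT_ASO, no member was called by edgeR, against 0.0735% of all genes. Mtmr14 did not overlap, as 1 of 10 members against 6.97% of all genes. All 4 KO_ASO mice, at 17.66 to 20.71 CPM, were below the WT_ASO mice at 22.10 to 31.55 CPM. The difference was -0.47 (SE 0.10, 95% interval -0.69 to -0.24, edgeR adjusted P = 0.0809, exact permutation P = 0.0286) and passed the threshold with DESeq2 (adjusted P = 0.00610), which called 2.82% of all genes. Mtmr3 differed by -0.19 (edgeR adjusted P = 0.322), and these 2 members had an unadjusted P under 0.05, against 15.1% of all genes. KO_ASO against WT_PBS gave 0 members called by edgeR, DESeq2 or limma-voom, which called 0.0401%, 0.635% and 0.0468% of all genes. It gave 0 members with an unadjusted P under 0.05 in edgeR and 0 without overlap, against 8.22% and 5.39% of all genes.

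Whether ASO1 acted differently in the 2 genotypes was tested by the interaction term. No member was called by edgeR, DESeq2 or limma-voom, which called 0.575%, 2.57% and 0.722% of all genes. In edgeR, 1 member had an unadjusted P under 0.05, against 12.7% of all genes. That member was Mtmr2, with a difference between the ASO1 effects of 0.23 (95% interval 0.00 to 0.46, edgeR adjusted P = 0.391). For Mtmr3 the term was 0.23 (95% interval -0.04 to 0.50, edgeR adjusted P = 0.483) and for Mtm1 0.18 (95% interval -0.16 to 0.53). A difference between genotypes was thus not resolved for any member.

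The 4 remaining myotubularin genes on the list are Mtmr10, Mtmr11, Sbf1 and Sbf2, all without a catalytic cysteine. In KO_PBS against WT_PBS, 1 of the 4 was called higher and 2 lower, against 7.43% and 5.12% of all genes, and with so few genes the count describes these genes only. Mtmr11 had 4.36, 2.98, 4.25 and 4.44 CPM in WT_PBS and 9.43, 6.69, 8.19 and 8.14 CPM in KO_PBS. Every knockout mouse was above every wild-type mouse, and the log2 fold change was 1.01 (SE 0.21, edgeR adjusted P = 0.00487). Its exons share 1428 bp with Gm17690 on the opposite strand, which had a mean of 64.4 counts against 182 for Mtmr11, so these reads may be mixed.

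Sbf1, an inactive partner of Mtmr2, had 87.45, 95.95, 94.60 and 92.04 CPM in WT_PBS and 65.75, 67.09, 70.53 and 61.71 CPM in KO_PBS, with no overlap and a change of -0.48 (SE 0.13, edgeR adjusted P = 0.0203). Mtmr10 had 32.46, 40.67, 28.82 and 37.56 CPM in WT_PBS and 19.19, 23.88, 24.36 and 26.53 CPM in KO_PBS, also without overlap, a change of -0.57 (SE 0.16, edgeR adjusted P = 0.0303). Mtmr10 shares 384 bp of exon with the opposite-strand gene Gm20457. Sbf2, the other partner of Mtmr2, showed a difference of 0.00 (95% interval -0.24 to 0.24).
With library totals alone the adjusted P of Sbf1 was 0.0624 and that of Mtmr10 was 0.0711. Sbf1 lost its call without WT_PBS replicate 2 (0.0519), KO_PBS replicate 1 (0.0645) or KO_PBS replicate 4 (0.0604), and Mtmr10 without WT_PBS replicate 2 (0.0914), WT_PBS replicate 4 (0.0831), KO_PBS replicate 1 (0.110) or KO_PBS replicate 2 (0.0574).

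With ASO1 in the knockout, none of the 4 was called by edgeR, against 3.64% of all genes, while DESeq2 called 1 and limma-voom 2 of them, against 7.06% and 7.95%. Mtmr11 had 4.21, 5.02, 4.98 and 5.61 CPM in KO_ASO, all below the 6.69 to 9.43 CPM of KO_PBS, and differed by -0.71 (SE 0.21, edgeR adjusted P = 0.0683). Mtmr11 did pass the threshold with DESeq2 (adjusted P = 0.0168), limma-voom (0.0217), the 2 groups fitted on their own in edgeR (0.0308) and the replicate block (0.0335), and without WT_ASO replicate 2 (0.0339) or 4 (0.0434), so its side of the threshold depended on the fit. Sbf1 had 94.74, 95.23, 82.37 and 64.45 CPM in KO_ASO, where replicate 4 again fell within the KO_PBS range, and differed by 0.35 (edgeR adjusted P = 0.147, limma-voom adjusted P = 0.0325, and 0.0303 in edgeR without replicate 4). Mtmr10 had 36.44, 27.96, 27.58 and 25.05 CPM and differed by 0.32 (edgeR adjusted P = 0.325).

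**Figure D4:**
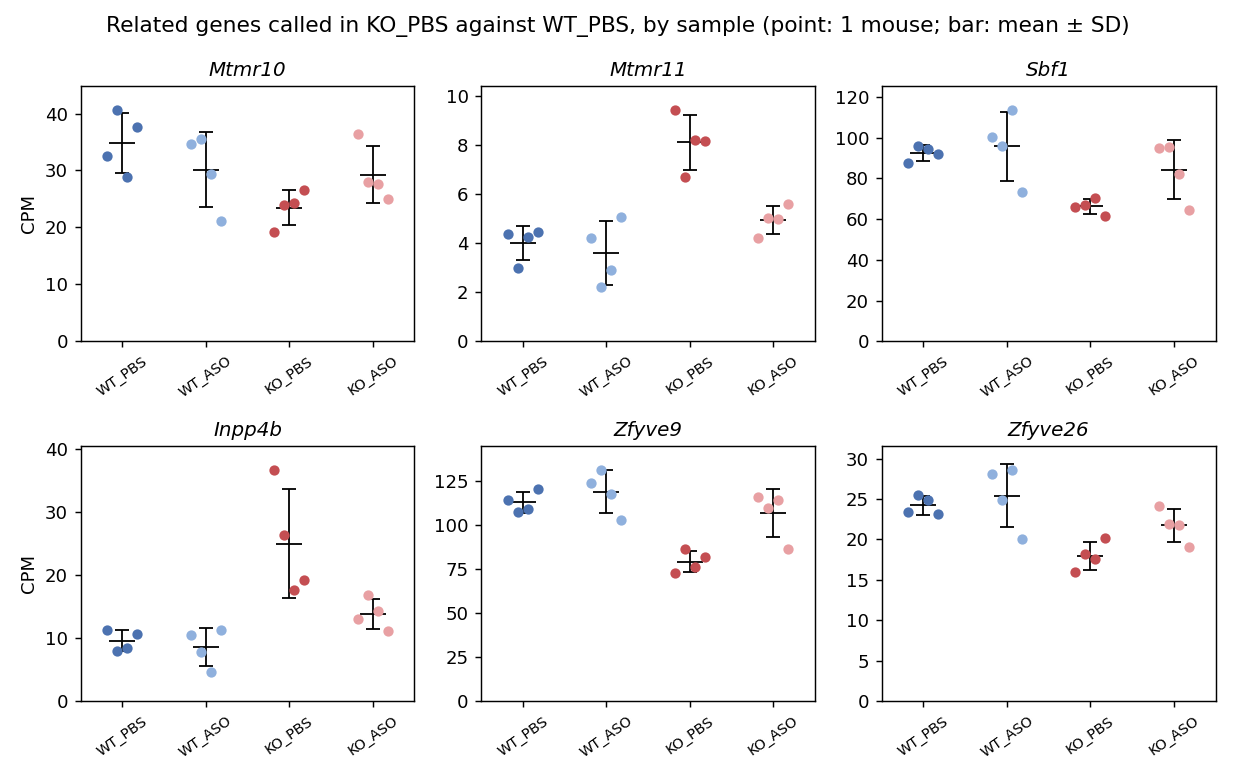
CPM of 6 related genes called in KO_PBS against WT_PBS, 1 point per mouse, with group mean and SD and axes starting at 0: the inactive myotubularins Mtmr10, Mtmr11 and Sbf1, the phosphatase Inpp4b and the FYVE-domain genes Zfyve9 and Zfyve26. Mtmr11 and Inpp4b are higher in every KO_PBS mouse than in any WT_PBS mouse and the other 4 are lower.

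Of 15 enzymes, subunits and regulators of PtdIns3P and PtdIns(3,5)P2 metabolism outside the family, 14 were tested and Pik3c2g was too low. In KO_PBS against WT_PBS, 1 of 14 was called higher and none lower, against 7.43% and 5.12% of all genes, and the median was 0.01. The called gene was Inpp4b, a phosphatase that forms PtdIns3P from a doubly phosphorylated lipid. Inpp4b had 11.29, 8.05, 8.51 and 10.76 CPM in WT_PBS and 36.75, 26.35, 17.72 and 19.26 CPM in KO_PBS, a change of 1.37 (SE 0.26, edgeR adjusted P = 0.00297), with the 4 knockout mice spread over a wide range. It had 11.15 to 16.81 CPM in KO_ASO, below all KO_PBS mice, and the difference of -0.85 was not called (edgeR adjusted P = 0.0769). Its side of the threshold depended on the fit, since it was called with DESeq2 (adjusted P = 0.0208, 7.06% of all genes called), with limma-voom (0.0376, 7.95% called) and, in edgeR, without WT_ASO replicate 3 (0.0394). With the replicate block the gene called was Pik3c2a, a kinase of the list (adjusted P = 0.0283), and not Inpp4b.

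Among 21 proteins that bind PtdIns3P or act with those that do, 20 were tested, and 2 of 20 were called lower and none higher in KO_PBS (median 0.00). For all genes the shares were 5.12% and 7.43%, together 12.6%, so the count of effectors was near the background. Hgs was left out because its symbol belongs to more than 1 Ensembl gene with shared exons. Zfyve9, a FYVE-domain anchor of TGF-beta receptor signalling, had 113.86, 107.34, 108.86 and 120.53 CPM in WT_PBS and 72.98, 86.10, 75.85 and 81.56 CPM in KO_PBS, a change of -0.51 (SE 0.10, edgeR adjusted P = 0.00316). Its exons share 706 bp with an opposite-strand gene that had a mean of 15.1 counts. Zfyve26, which acts in lysosome reformation, had 23.09 to 25.51 CPM in WT_PBS and 15.94 to 20.22 CPM in KO_PBS, a change of -0.43 (edgeR adjusted P = 0.0161). The Zfyve26 call was lost with library totals alone (0.0725) and without KO_PBS replicate 1 (0.0655).

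Zfyve9 was also the only gene of these lists, Dnm2 and Des aside, called in KO_ASO against KO_PBS, where 1 of 20 effectors rose, against 0.802% of all genes called higher and 3.64% called in either direction. It had 115.57, 109.55, 114.14 and 86.40 CPM in KO_ASO, replicate 4 lying just above the highest KO_PBS mouse, a change of 0.43 (SE 0.10, edgeR adjusted P = 0.0251). The call was lost with the 2 groups fitted on their own (0.0618) and without any one of 6 mice: KO_PBS replicate 1 (0.102), 3 (0.0547) or 4 (0.0539), or KO_ASO replicate 1 (0.0900), 2 (0.0716) or 3 (0.0848).

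A last list held 6 genes linked to centronuclear or related congenital myopathies (Bin1, Dnm2, Ryr1, Speg, Ttn and Ccdc78) and Des, a gene of myofibrillar rather than centronuclear myopathy, and 6 of the 7 were tested, Ccdc78 being too low. In KO_PBS against WT_PBS, edgeR called 1 of 6 lower (Bin1, the gene targeted in these mice) and 1 higher (Des), against 5.12% and 7.43% of all genes. Dnm2, Ryr1, Speg and Ttn were not called by edgeR. By limma-voom 4 of the 6 were called, against 18% of all genes. Dnm2, the large GTPase of membrane fission, differed by 0.16 in KO_PBS (edgeR adjusted P = 0.377). Des, the intermediate filament desmin, rose by 0.75 (edgeR adjusted P = 0.000118) and fell by 0.60 with ASO1 in the knockout (edgeR adjusted P = 0.00303).

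The genes whose pattern over the 16 mice lay closest to a member were ranked by the root mean square distance between standardised log2 CPM values, for which the median gene lay at 1.43 from Mtm1 and 1.44 from Mtmr3. The closest to Mtmr3 were Gid4 (0.255), Dcaf5 (0.255) and Rxra (0.260). In KO_PBS against WT_PBS, Gid4 fell by 0.97 (edgeR adjusted P = 0.000357) and Rxra fell by 0.54 (edgeR adjusted P = 0.0133), while Dcaf5 differed by -0.35 (edgeR adjusted P = 0.0547). The closest to Mtm1 were less near: Cfap97 (0.414), Kdm5a (0.446) and Shprh (0.452), and none of these 3 was called in that comparison. The distances share libraries and scaling and are a description without a test. These genes were picked for their pattern over the same 16 mice, so a change like that of the member follows from the choice. Their P values are therefore no separate result.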

How the data were processed

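RNA from the tibialis anterior of 16 mice was extracted in TRI Reagent and sequenced from stranded messenger RNA libraries, per the labels. The deposited values are raw counts of reads for each Ensembl gene, without normalization, in 1 column per sample. Tools in the submitters' processing notes are STAR 2.5.3a, HTSeq 0.6.1p1, Bowtie2 2.2.8 and cutadapt 1.10, with the build GRCm38 (mm10). The role of each tool, the strand setting and the annotation release are not stated there. All genes were fitted together in edgeR 4.0.16 (R 4.3.3): filterByExpr by group kept 14960 of 29730 genes, TMM factors scaled the libraries, and all 16 samples entered 1 quasi-likelihood fit (robust) with a mean for each group. Alternatives were DESeq2 1.42.0, limma-voom (limma 3.58.1), other scalings, no filter, the compared groups only, a replicate block and 16 fits without 1 sample. The limma-voom fit weighted each sample by its estimated quality, so an outlying library can count for less in it. Exact permutation tests were two-sided. Members, lists and named genes (every member, up to 5 genes of each list called in any comparison, by smallest P, and the 3 closest genes to Mtm1 and Mtmr3) were chosen with earlier results of these data known. Sbf2, Pik3c2a and the uncalled genes of the myopathy list are named outside that rule. The labels do not say that samples were from separate litters or days, so P values measure the spread between these mice. Replicates differed by a chi-square of at least 21.7 per gene, far above sampling noise, so none was a repeated library. Loop sequences came from GRCm38 with the GENCODE annotation, aligned with MAFFT 7.526. The count model was tested on simulated data.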

Additional observations from a re-analysis of the deposited data

Results flagged for a closer look

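In 3 of 76 groups of 4 mice, 1 mouse stood apart from the other 3 by Dixon's criterion, which chance alone meets in about 1 in 20 groups. Mtmr4 had 22.7 CPM in KO_ASO replicate 1, against 15.9 to 16.4 CPM in the other KO_ASO mice. Without that mouse the difference of Mtmr4 between KO_ASO and KO_PBS moved from 0.02 to -0.12 (edgeR adjusted P = 0.699). Mtmr9 had 10.2 CPM in KO_PBS replicate 2, against 11.8 to 11.9 CPM in the others. Mtmr11 had 2.98 CPM in WT_PBS replicate 2, against 4.25 to 4.44 CPM in the others.

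The effect of ASO1 on Des, the desmin gene, differed between genotypes by an interaction term of -0.74 on the log2 scale (edgeR adjusted P = 0.0234). The call was lost without any one of 7 mice, with adjusted P values from 0.0511 to 0.0679.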

How the results depend on the processing

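Mtmr3 in KO_PBS against WT_PBS was called in every setting, with log2 fold changes from -0.45 to -0.39 and adjusted P from 0.00180 to 0.0285 without 1 sample.
Per kilobase of the principal transcript, levels in WT_PBS were 5.11 (Mtm1), 9.61 (Mtmr1), 5.38 (Mtmr2), 18.3 (Mtmr3), 21.7 (Mtmr6), 0.315 (Mtmr7), 4.80 (Mtmr9) and 8.16 CPM (Mtmr14).
Counts of calls that changed were as follows. For the members, 3 were called with limma-voom in KO_PBS against WT_PBS, 1 with DESeq2 and 1 with limma-voom in KO_ASO against KO_PBS, and 1 with DESeq2 in KO_ASO against WT_ASO. For the other myotubularin genes, library totals alone left 1 in the first comparison, and in the second DESeq2 gave 1, limma-voom 2, the compared groups only 1 and the replicate block 1. For the lipid enzymes, library totals, limma-voom, the compared groups only and the replicate block gave 2 in the first comparison, and DESeq2, limma-voom and the block gave 1 in the second. For the effectors, limma-voom and the compared groups only gave 4 in the first, and 3 and 0 in the second. For the myopathy list, limma-voom gave 4 in the first. The cause of these changes was not tested.
Without 1 sample, members called in KO_ASO against KO_PBS ran from 0 to 1, other myotubularin genes from 1 to 3 in the first comparison and from 0 to 1 in the second, lipid enzymes from 0 to 1 in the second, effectors from 1 to 4 and from 0 to 2, and genes of the myopathy list in the interaction from 0 to 1.
Over all genes, library totals alone changed the first comparison from 1112 higher and 766 lower to 1942 higher and 260 lower, and without 1 sample the total of 1878 ran from 997 (without KO_PBS replicate 1) to 2137. In KO_ASO against KO_PBS, 544 calls became 1056 with DESeq2, 1190 with limma-voom, 300 in the compared groups only and 208 to 831 without 1 sample. In WT_ASO against WT_PBS, 1 call became 33 with DESeq2, 3 with no filter, 2 with the block and up to 4 without 1 sample. DESeq2 raised 6 calls to 95 in KO_ASO against WT_PBS and 86 to 385 in the interaction (4 to 11 and 23 to 102 without 1 sample). In KO_ASO against WT_ASO, 11 calls became 422 with DESeq2, 6 with its size factors in edgeR, 2 with limma-voom, 2 in the compared groups only, 44 with the block and 2 to 19 without 1 sample.
Replicate numbers are shared between groups. Correlations of same-numbered samples had a median of 0.0751, against -0.0268 for other pairs, and 11 of 24 exceeded 0.1. Of the 16 samples, 14 correlated best with a sample of their own number. The main fit did not take the numbers as pairs, so it leaves out any structure that same-numbered samples share. The replicate block raised the calls over all genes from 1878 to 2322 in the first comparison and from 544 to 752 in KO_ASO against KO_PBS. With the replicate block Mtmr3 was at -0.43 (adjusted P = 0.00440).
Of 1737 gene-level alternatives, 62 changed the sign of a value that was not called, with new values of at most 0.19 in size, and none reversed a called one.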
